A study of Drosophila melanogaster with 24 samples.

Results

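Wing imaginal discs that carried the dmyc transgene were compared with control discs at 48 h, the last time point of the series, on 6 two-colour arrays of 24 in all. The 6 arrays were chosen by their titles, which name the comparison, the time and replicates 1 to 6. The wing disc is the larval epithelium that forms the adult wing. Discs of the genotype tub>dmyc>Gal4, labelled as undergoing competition, were set against discs of the genotype tub>cd2>Gal4, the control without competition. Both came from Drosophila melanogaster larvae of the third instar, and the protocol describes 1 heat shock for the flies, given to make many borders between clones with and without GFP. The tubulin promoter is active in nearly all cells, so the transgene is not limited to 1 cell type of the disc. Whole discs were extracted, so all clones were measured together, and fewer cells of a type cannot be told apart from less RNA per cell. The 18 other arrays repeat the comparison at 0, 12 and 24 h.

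In cell competition, cells with more Myc survive beside neighbours with less, which are removed by apoptosis although they could live on their own. Myc is a transcription factor that drives growth, and among its best known targets in flies are genes of the nucleolus that make and process ribosomal RNA. Loser cells are known for marks of low fitness, such as isoforms of the membrane protein encoded by flower (fwe) and the calcium-binding protein encoded by ahuizotl (azot), and for activity of the JNK stress kinase pathway. No value for dm, which encodes Myc, is analysed here, and the labels could not be checked against the transgene.

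Each value below is a log2 ratio of the signals of both RNAs on an array, where a positive number likely means a higher level in dmyc discs. That direction rests on the order of the names in the titles. With the opposite order every higher and lower would change places. Base 2 was assumed, since the sources used here do not give the base. The dmyc RNA was labelled with Cy5 on replicates 1 to 3 and with Cy3 on replicates 4 to 6. Each array resembled 1 array of the opposite dye best, replicate 1 with 4, 2 with 5 and 3 with 6 (r across features 0.583 to 0.752), while other pairs of 48 h arrays lay between -0.002 and 0.464. The labels do not say whether such partners share an RNA extract or whether replicates were separate animals. The p-values then reflect spread among arrays, which may be technical. Partners therefore entered the fit as a random block. Each gene's spread was pooled over all 24 arrays of the 4 times. Neither p-values nor standard errors thus measure its 48 h spread alone. Values after ± are moderated standard errors from limma, and a call is a Benjamini-Hochberg adjusted p under 0.05 over all features tested. The ratios of an array had a standard deviation of 0.224 to 0.292 over features. Precision is limited by having 6 arrays in 3 pairs.

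At 48 h, 203 of 10622 features differed between dmyc and cd2 discs, which is 1.91% of those tested. Of these, 98 were higher in dmyc discs (0.923%) and 105 were lower (0.989%). Named genes made up 147 of them, 83 higher and 64 lower. Most differences were small: the median size of a called ratio was 0.361, 149 of the 203 were under 0.5 in size and 10 were over 1. The 3 pairs of arrays gave the same sign for 202 of the 203, which a choice of features by a test on these same arrays favours. How many features passed depended on single pairs, with 136 without replicates 1 and 4, 46 without replicates 2 and 5 and 295 without replicates 3 and 6. Of the 203 calls, 31 held whichever pair was left out. Treating all 6 arrays as independent gave 664 calls, and averaging partners gave 58. A fit to the 48 h arrays alone gave 58 as well, and 42 of the 203 calls held in it.

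Of the named genes past the threshold whose 6 arrays shared 1 sign, hll, a gene for an acyl-CoA synthetase, had the highest ratio. Its 6 ratios had a lowest value of 0.43, a median of 1.02 and a highest value of 2.30, with a fitted ratio of 1.14 ± 0.29 (adjusted p 0.0428). BaraB, a gene of the Baramicin family, had ratios of 1.06, 1.22, 0.54, 1.25, 1.36 and 1.41 on replicates 1 to 6 and a fitted ratio of 1.14 ± 0.15 (adjusted p 0.000132). All 6 arrays of BaraB lay well above 0, and its call held whichever pair was left out. The call of hll was lost without replicates 2 and 5, where its ratio was 0.78 (adjusted p 0.486), without replicates 1 and 4 (1.20, adjusted p 0.137), and without replicate 1, 2, 3, 4 or 5 alone.

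Nep6, a neprilysin-type metallopeptidase gene on the X chromosome, stood between 0.78 and 1.26 on all arrays (1.04 ± 0.19, adjusted p 0.00399). pst, the gene pastrel, which is known for antiviral resistance, had a lowest ratio of 0.43, a median of 0.85 and a highest of 1.42 (0.92 ± 0.18, adjusted p 0.00672). Without replicates 2 and 5 neither passed (Nep6 adjusted p 0.0892, pst 0.195). Arms gave 0.70 to 1.07 over the arrays (0.88 ± 0.15, adjusted p 0.00165), but its 2 features disagreed in size, with 1.59 for one and 0.17 for the other, of which only the first passed. The other places among the 15 highest went to the cochaperone gene DnaJ-1 (0.86), CG15741 (0.84), CG32407 (0.80), CG4686 (0.60), CG32809 (0.59), the nucleotidase gene NTPase (0.58), CG5274 (0.58), KFase, which acts in tryptophan breakdown (0.58), the translation elongation factor gene eEF1delta (0.57) and the uridylyltransferase gene Tailor (0.57). Of the 15, 10 did not pass without replicates 2 and 5, 4 did not without replicates 1 and 4, and 1 did not without replicates 3 and 6.

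**Figure D1:**
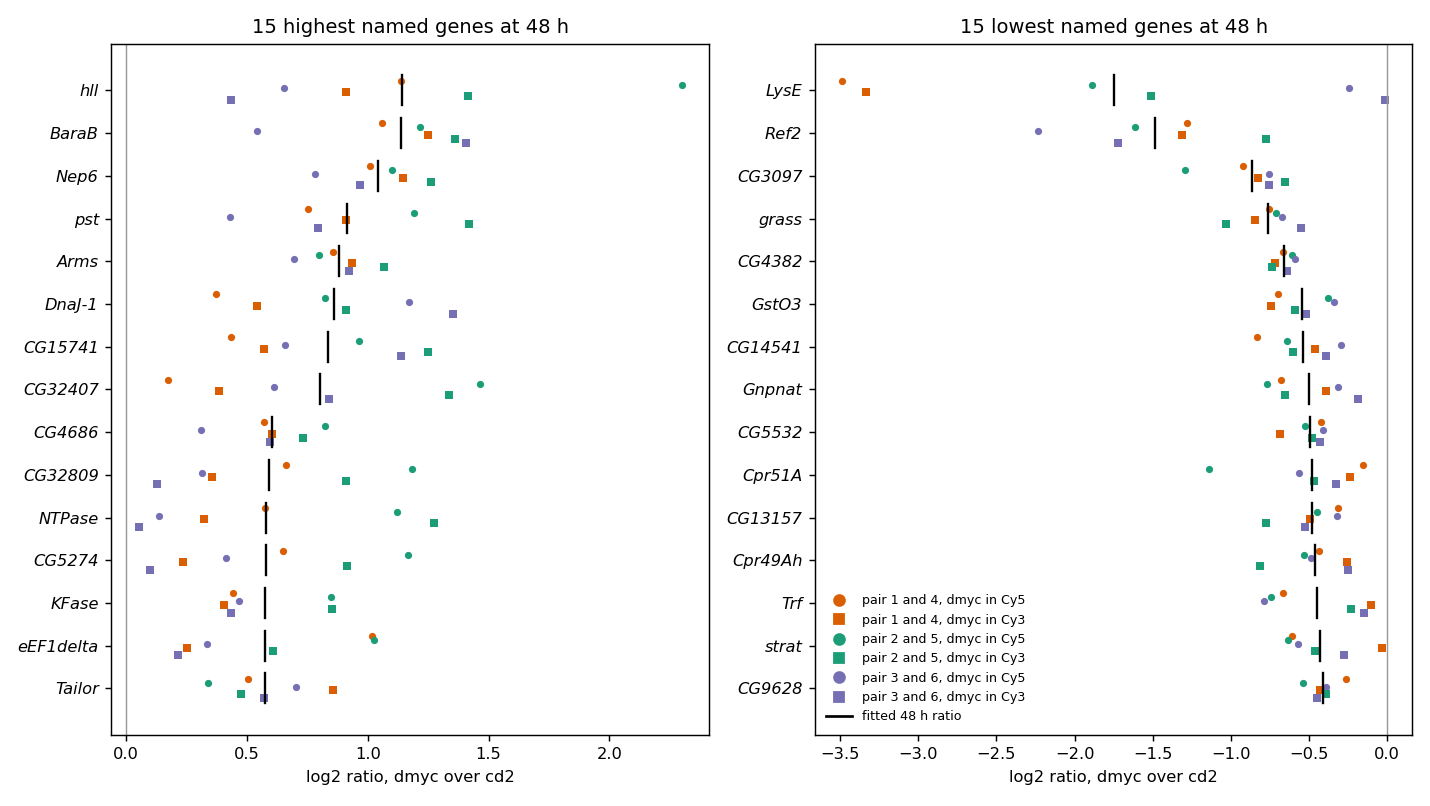
Log2 ratio of dmyc over cd2 on each 48 h array for the 15 highest and 15 lowest named genes, with colours for dye-swap pairs, circles and squares for the dye of the dmyc RNA and black bars for the fitted ratio. BaraB and Ref2 stand apart from 0 in all 3 pairs, whereas LysE ranges from -3.49 to -0.012 and follows the pairs.

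Among the lowest genes, Ref2, a member of the family of RNA export adaptors, had ratios of -1.28, -1.61, -2.23, -1.31, -0.77 and -1.72 on replicates 1 to 6. Its fitted ratio was -1.49 ± 0.16 (adjusted p 1.88e-05). No array of Ref2 came near 0, and its call held under every alternative tried on single genes. CG3097 ranged from -1.30 to -0.65 with a median of -0.79 (-0.87 ± 0.12, adjusted p 0.000346). grass, a serine protease that acts upstream of the Toll receptor in immunity, lay between -1.03 and -0.55 (-0.76 ± 0.09, adjusted p 3.85e-05). One of the 2 features of grass gave -1.51 and passed, while the other gave -0.019 and did not. GstO3, an omega-class glutathione S-transferase gene, stood between -0.74 and -0.34 (-0.54 ± 0.07, adjusted p 0.000269).

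LysE, a digestive lysozyme gene, had the lowest fitted ratio of all named genes that passed (-1.75 ± 0.43, adjusted p 0.0345), and its arrays differed by pair. It stood at -3.49 and -3.34 on replicates 1 and 4, at -1.89 and -1.51 on replicates 2 and 5, and at -0.24 and -0.012 on replicates 3 and 6. Without replicates 1 and 4 its ratio was -0.91 (adjusted p 0.465). The call was lost too without replicates 2 and 5 (adjusted p 0.218) and without replicate 1, 2, 4 or 5 alone. Fitted to the 48 h arrays alone, LysE had an adjusted p of 0.25. The rest of the 15 lowest were CG4382 (-0.66), CG14541 (-0.54), Gnpnat, an enzyme gene of the pathway to UDP-N-acetylglucosamine (-0.50), CG5532 (-0.49), the cuticle protein gene Cpr51A (-0.48), CG13157 (-0.48), the cuticle protein gene Cpr49Ah (-0.46), Trf, which encodes a relative of the TATA-binding protein (-0.45), strat (-0.43) and CG9628 (-0.41). For Trf the dye orientations stood apart, with -0.79 to -0.67 where dmyc was in Cy5 and -0.23 to -0.10 where it was in Cy3. Of the 15 lowest, 8 did not pass without replicates 2 and 5, 4 did not without replicates 1 and 4, and 2 did not without replicates 3 and 6.

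Some features that the annotation does not name had larger ratios than any named gene. Feature 13077 stood at 3.18 ± 0.73 (5 arrays, adjusted p 0.0231), feature 9280 at 2.83 ± 0.64 (adjusted p 0.0188) and feature 13722 at -2.90 ± 0.37 (adjusted p 0.000132). They were singled out after their values were seen.

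Of 43 measured genes of nucleolar ribosome biogenesis, which make and process ribosomal RNA, 9 passed as higher in dmyc discs and 0 as lower, against 0.923% and 0.989% of all features. The median ratio of the list was 0.16, beside 0.001 over all features tested, and 42 of the 43 fitted ratios were above 0. The mean of the list was 0.20, 0.20 and 0.17 in the pairs 1 and 4, 2 and 5, and 3 and 6. Earlier results of these data already showed this list higher at 12 h, so its direction at 48 h is not independent evidence.

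The core of RNA polymerase I, the enzyme that transcribes ribosomal RNA genes, gave the lowest p-values of the list. Polr1A, its largest subunit, had ratios of 0.77, 0.41, 0.61, 0.28, 0.24 and 0.24 on replicates 1 to 6 (0.42 ± 0.07, adjusted p 0.00235), higher where dmyc was in Cy5. Polr1B, its second largest subunit, had ratios of 0.46, 0.37, 0.31, 0.30, 0.27 and 0.32 (0.34 ± 0.05, adjusted p 0.000726). Both calls held whichever pair was left out. The nucleolar protein gene Surf6 was at 0.33 ± 0.07 (adjusted p 0.0126), Bka at 0.22 ± 0.04 (adjusted p 0.00694) and CG7006 at 0.24 ± 0.05 (adjusted p 0.0143). Surf6 did not pass without replicates 1 and 4 or 2 and 5, Bka not without 3 and 6, and CG7006 not without 2 and 5 or 3 and 6. The other 4 members that passed, named here after their values were seen, were the polymerase subunit genes Polr1C (0.26) and Polr1E (0.22), CG32344 (0.29) and Gar1, a protein of the small nucleolar particles that modify ribosomal RNA (0.55). Polr1C did not pass without any 1 of the 3 pairs, Polr1E and CG32344 not without replicates 1 and 4 or 2 and 5, and Gar1, whose arrays ran from -0.10 to 1.31, not without 2 and 5. Fib, the fibrillarin methyltransferase, had a ratio of 0.40 ± 0.11 and did not pass (adjusted p 0.0524).

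**Figure D2:**
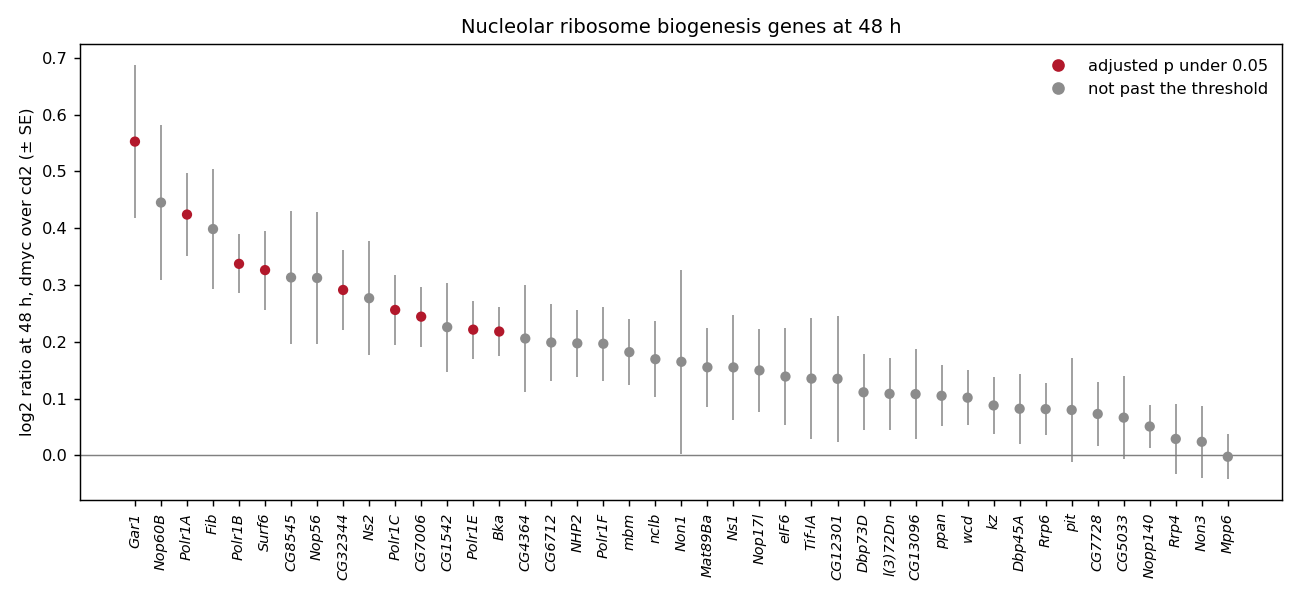
Fitted log2 ratio at 48 h, with its standard error, for the 43 nucleolar ribosome biogenesis genes ordered by ratio. The 9 members past the threshold are red and 42 of the 43 points lie above 0.

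Of 36 genes listed as cytoplasmic ribosomal proteins, 2 passed as higher and 0 as lower (5.56%, beside 1.91% of all features), with a median of 0.019. Both are relatives of yeast factors that assemble the large subunit in the nucleolus rather than structural proteins, and no other member passed in limma. They were RpL7-like (0.44 ± 0.09, adjusted p 0.00823, between 0.36 and 0.56 on the arrays) and RpL24-like (0.33 ± 0.08, adjusted p 0.0386). Of 61 mitochondrial ribosomal protein genes none passed in limma, and the median was 0.041. Among 42 translation factor genes, eEF1delta and eIF4H2 (0.36 ± 0.09, adjusted p 0.0358) were higher and 0 were lower (4.76% called). Of 67 genes of oxidative phosphorylation, 0 passed as higher and 2 as lower, a share of 2.99% beside 1.91% of all features. These were the complex I subunit genes ND-15 (-0.39 ± 0.08, adjusted p 0.00849) and ND-B17.2 (-0.27 ± 0.07, adjusted p 0.0386). RpL7-like and ND-15 did not pass without replicates 1 and 4 or 2 and 5, and RpL24-like, eIF4H2 and ND-B17.2 lost their calls without single arrays as well as without pairs. Among 31 DNA replication genes RfC3, a clamp loader subunit, passed as higher (0.23 ± 0.06, adjusted p 0.0428) and not without any 1 of the 6 arrays. Of 23 cell cycle regulators 1 passed, the spindle checkpoint gene Bub3, which was lower (-0.36 ± 0.08, adjusted p 0.0137) and did not pass without replicates 1 and 4 or 2 and 5.

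Of 3 fitness markers 1 passed, azot, and of 16 apoptosis genes 0, beside 1.91% of all features. In lists of this size, 0 or 1 call cannot be told apart from that share. azot had ratios of 0.81, 1.23, 0.39, 0.54, 0.69 and -0.06 on replicates 1 to 6, so 5 of 6 arrays were above 0. Its fitted ratio was 0.60 ± 0.14 (adjusted p 0.0228). In a fit to the 48 h arrays alone the adjusted p of azot was 0.164. The call was lost without replicates 1 and 4 (0.56, adjusted p 0.146), without replicates 2 and 5 (0.42, adjusted p 0.378) and without replicate 2 alone (0.52, adjusted p 0.0717). fwe ranged from -0.34 to 0.32 (-0.022 ± 0.089) and did not pass. SPARC, a secreted matrix protein that protects loser cells, ranged from -0.39 to 0.18 (-0.036 ± 0.081) and did not pass. The array holds 1 feature for fwe, whose single ratio cannot show a change between isoforms. At 0 h both genes had passed as lower in limma (fwe -0.48, adjusted p 0.0053, SPARC -0.65, adjusted p 0.000597). Neither passed at 12 or 24 h. Of 16 regulators and effectors of apoptosis none passed in limma, with a median of -0.011. The member of lowest p was the deubiquitinase gene scny (0.30 ± 0.11, adjusted p 0.198), followed by the initiator caspase gene Dronc (-0.23 ± 0.09, adjusted p 0.249).

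puc was the member that passed of 21 genes of the JNK pathway and its targets (4.76%, beside 1.91% of all features). It encodes the phosphatase that switches JNK off and is itself induced by JNK. Its ratios were 0.32, 0.15, 0.076, 0.43, 0.29 and 0.33 on replicates 1 to 6, all above 0 (0.27 ± 0.04, adjusted p 0.00169). Without replicates 1 and 4 the ratio was 0.21 (adjusted p 0.056). The list's median was -0.006, and 10 of its 21 members were above 0. In limma 0 passed among 7 genes of the JAK-STAT pathway, 17 of insulin and TOR signalling and 12 of the Hippo pathway. The same held for 9 genes of the Wingless pathway and 14 of the Dpp pathway. In lists of this size, 0 or 1 call cannot be told apart from the share of all features. Of 23 disc patterning genes (4.35% called) Doc1, a T-box factor, was lower (-0.24 ± 0.06, adjusted p 0.0424). Without any 1 of the replicates 1 to 5 Doc1 did not pass. Of 17 polarity and adhesion genes (5.88% called) the tumour suppressor gene l(2)gl was higher (0.56 ± 0.13, adjusted p 0.0309). Its ratios were 0.97, 0.88, -0.12, 0.75, 0.68 and 0.20, and it did not pass without replicate 1, 2, 4 or 5.

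**Figure D3:**
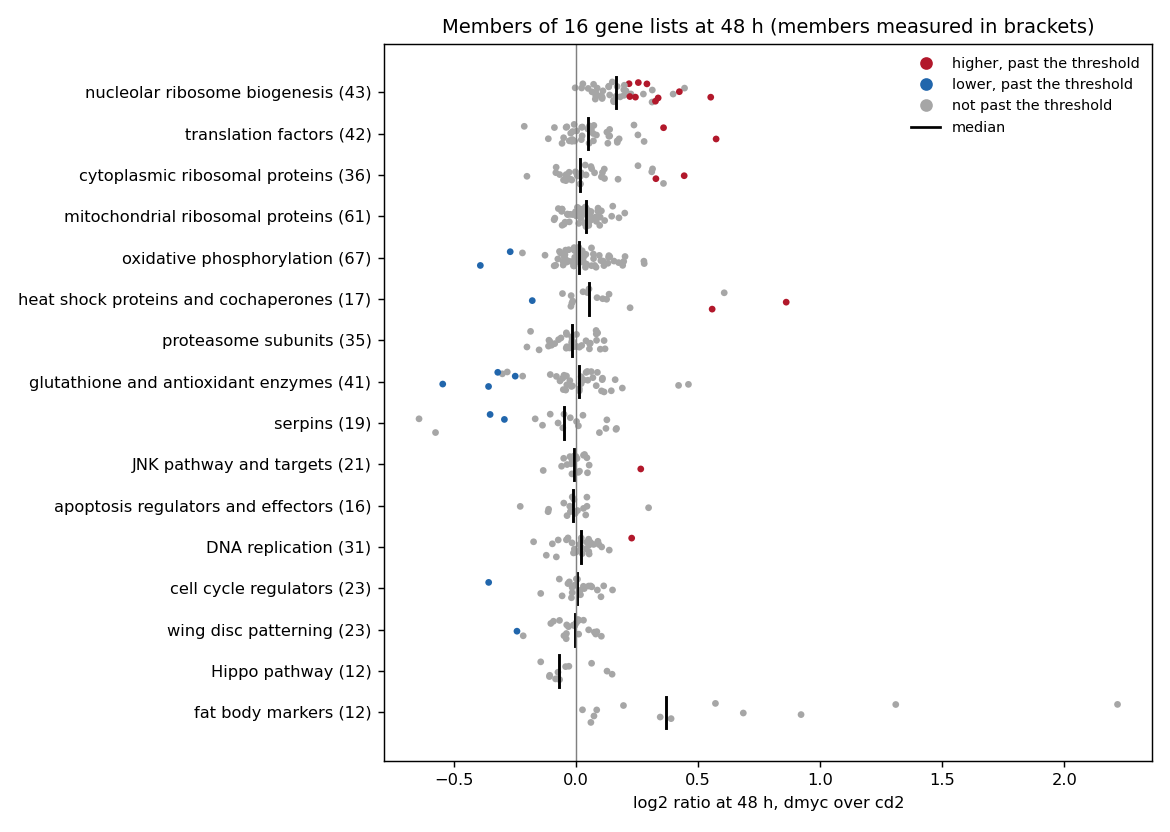
Fitted log2 ratios at 48 h of the members of 16 gene lists, with red and blue points for members past the threshold and black bars for medians. The nucleolar list is centred on 0.16, the apoptosis and JNK lists lie near 0, and the fat body markers extend to 2.22 with no member past the threshold.

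Chaperone genes that passed lay in both directions, and detoxification genes that passed were lower. Of 17 heat shock proteins and cochaperones, DnaJ-1 and Hsp26 passed as higher and DnaJ-H as lower (17.6% called, beside 1.91% of all features). DnaJ-1, an Hsp40 cochaperone, had ratios of 0.37 and 0.54 on replicates 1 and 4, 0.83 and 0.91 on 2 and 5, and 1.17 and 1.35 on 3 and 6 (0.86 ± 0.14, adjusted p 0.00115). The small heat shock protein gene Hsp26 had the same order of pairs, with 0.01 and 0.25, 0.46 and 0.97, and 0.82 and 0.83 (0.56 ± 0.13, adjusted p 0.0226). DnaJ-1 passed whichever pair was left out, and Hsp26 did not pass without replicates 2 and 5 (adjusted p 0.258) or 3 and 6 (0.182). DnaJ-H stood at -0.18 ± 0.05 (adjusted p 0.0428) and did not pass without replicate 1, 2, 4, 5 or 6 alone. Of 41 glutathione and antioxidant genes, 4 passed as lower and 0 as higher (0.989% and 0.923% of all features), with a median of 0.014: GstO3, GstD3 (-0.25 ± 0.06, adjusted p 0.0188), GstE11 (-0.32 ± 0.08, adjusted p 0.0373) and the extracellular superoxide dismutase gene Sod3 (-0.36 ± 0.09, adjusted p 0.0389). GstD3, GstE11 and Sod3 each failed to pass when some single arrays were left out. Of 62 cytochrome P450 genes, Cyp301a1 (-0.37 ± 0.08, adjusted p 0.0106) and Cyp317a1 (-0.19 ± 0.04, adjusted p 0.0143) were lower and 0 were higher, which is 3.23% called beside 1.91% of all features. Neither passed without replicates 1 and 4, Cyp301a1 not without 2 and 5 and Cyp317a1 not without 3 and 6.

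Secreted protease inhibitors of the serpin family gave 2 lower and 0 higher of 19 measured, against 0.989% and 0.923% of all features. Spn47C ranged from -0.59 to -0.15 (-0.35 ± 0.05, adjusted p 0.000704) and held its call whichever pair was left out. Spn27A, which restrains melanization, ranged from -0.57 to -0.12 (-0.29 ± 0.05, adjusted p 0.00455) and did not pass without replicates 1 and 4 or 2 and 5. Cuticle protein genes gave 2 lower and 0 higher of 91, Cpr51A and Cpr49Ah, and their share of 2.2% was close to the 1.91% of all features. Of 6 genes listed as antimicrobial peptides BaraB passed, and of 22 Toll and Imd genes grass passed, the first higher and the second lower.

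The difference of the 48 h ratio from the mean of the 0, 12 and 24 h ratios passed for 4 of 10622 features (0.0377%), 2 higher and 2 lower (0.0188% each). Ttd14, known from the trafficking of the photoreceptor channel TRPL, had ratios of 0.56, 0.39, 0.47, 0.63, 0.59 and 0.40 on the 48 h arrays. Its ratio was 0.51 ± 0.05 at 48 h (adjusted p 1.7e-05), after 0.23 at 0 h, 0.068 at 12 h and -0.003 at 24 h, a rise of 0.41 ± 0.06 over the earlier mean (adjusted p 0.00787). puc had ratios of -0.10, 0.018 and -0.12 at the earlier times, and its rise was 0.33 ± 0.05 (adjusted p 0.00789). The other 2 were unnamed features, 11915 and 13424, whose ratios fell by 0.38 and 0.84. This count was 0 without the 48 h replicates 1 and 4, 0 without 2 and 5 and 0 with partners averaged. In those fits 400, 355 and 470 features had an unadjusted p under 0.05 in limma, against 502 with all arrays. Without any true difference, a share of about 0.05 of the 10622 features would have such a p. None of these numbers of features is above that share. The count of calls was 18 without the 24 h replicates 1 and 5.

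At the earlier times, 0.932%, 0.951% and 0.621% of all features were higher at 0, 12 and 24 h, and 3.9%, 0.395% and 0.979% were lower. Of the 98 higher features at 48 h, 70 had not been called higher at any earlier time. Of the 105 lower features, 68 had not been called lower. Both counts rest on the threshold, and most features called at 48 h had the same sign before. The 12 h ratio shared the sign for 91.8% of all 98 higher and 93.3% of all 105 lower features. For the 24 h ratio these shares were 87.8% and 93.3%, and for the 0 h ratio 71.4% and 73.3%. No 48 h call was opposite to a call at an earlier time. BaraB and grass were called at all 4 times. BaraB stood at 0.88, 0.77, 0.76 and 1.14 at 0, 12, 24 and 48 h, and grass at -0.50, -0.60, -0.40 and -0.76. Ref2 went from -0.29 at 0 h, which did not pass, to -0.96, -0.66 and -1.49. azot stood at -0.036, 0.11 and 0.026 before 48 h, and its difference from the earlier mean did not pass (adjusted p 0.531). Nep6 stood at -0.013, 0.20, 0.60 and 1.04, and its difference did not pass either (adjusted p 0.531). Across the 10622 features, the 48 h ratio correlated with that at 0, 12 and 24 h at 0.141, 0.523 and 0.409, a description over features that share arrays, dyes and probes.

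**Figure D4:**
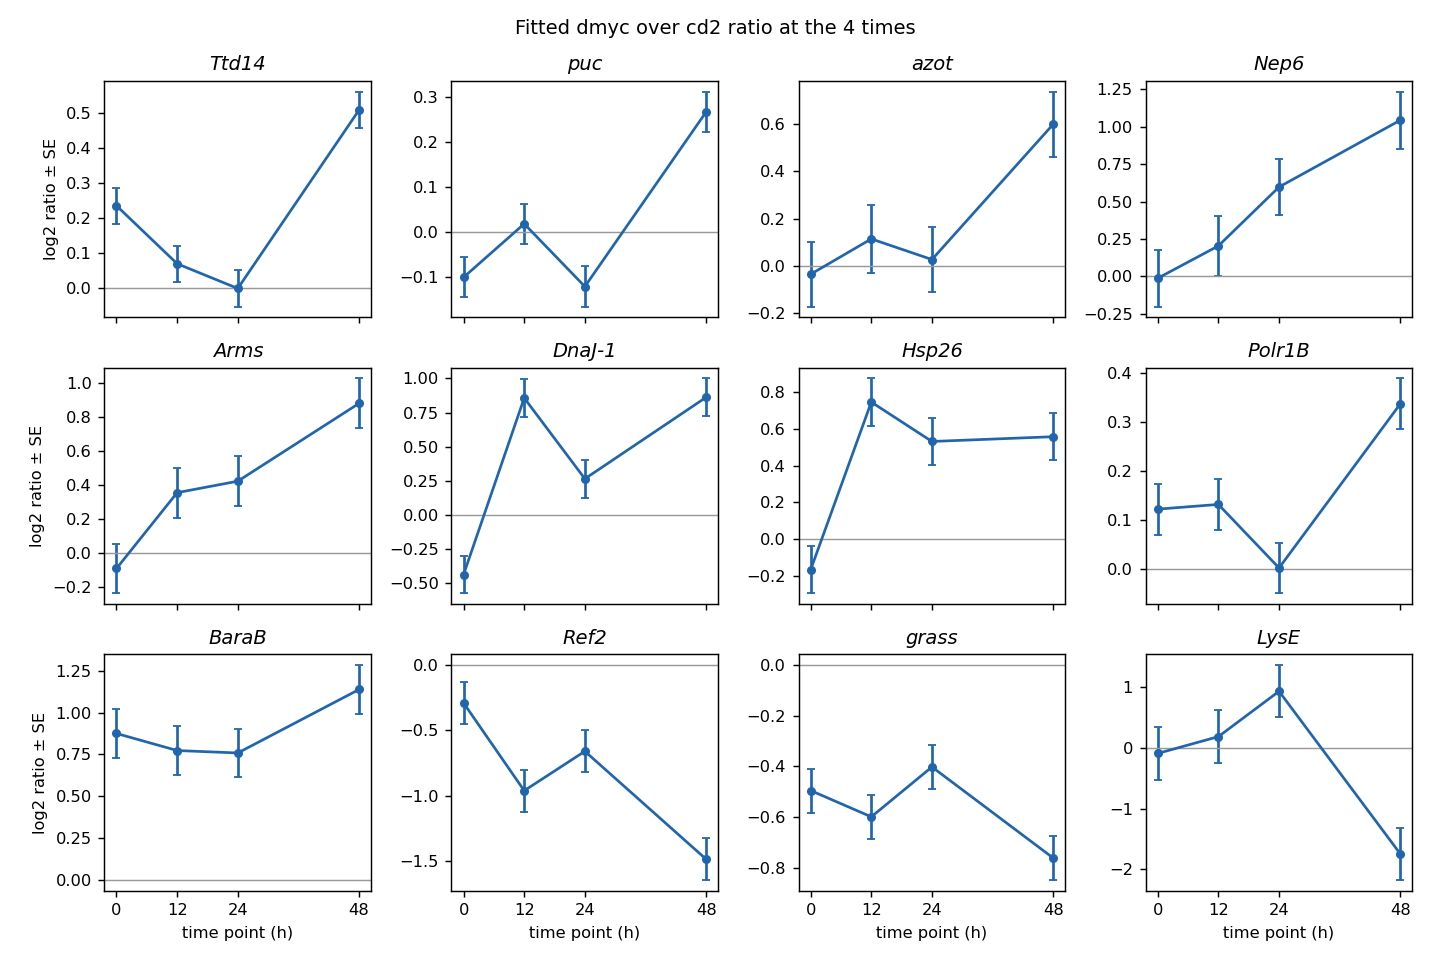
Fitted log2 ratio with its standard error at 0, 12, 24 and 48 h for 12 genes picked for display after their values were seen, each panel with its own vertical scale. Ttd14 and puc are the named genes whose 48 h ratio differed from the earlier mean past the threshold, and BaraB and grass keep 1 sign throughout.

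Markers of tissues that lie beside the disc in the larva had some of the largest ratios. Of 12 fat body markers all had fitted ratios above 0, beside 5405 of 10622 features tested. None of the 12 passed in limma, beside 1.91% of all features, and in a list of this size that cannot be told apart from that share. The list had a median of 0.37 and array means from 0.38 to 0.72. Its means were 0.47, 0.63 and 0.61 in the pairs 1 and 4, 2 and 5, and 3 and 6. Fbp2 stood at 1.97 and 1.25 on replicates 1 and 4, at 4.33 and 3.94 on 2 and 5, and at 0.89 and 0.94 on 3 and 6 (2.22 ± 0.64, adjusted p 0.0752). The lipoprotein gene apolpp was between 0.76 and 1.72 (1.31 ± 0.40, adjusted p 0.0951). Fbp1, a receptor for storage proteins, ranged from -0.17 to 1.04 (0.20 ± 0.14, adjusted p 0.631). Single members differed in which pair was highest: Fbp2 was highest in 2 and 5, whereas FASN1 was at -0.16 and -0.09 there.

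Markers of salivary gland and gut were lowest in replicates 1 and 4. The mean of 7 salivary glue genes was -1.94 in that pair and -0.052 and 0.042 in the others, and none passed in limma. Sgs5, a glue protein gene, stood at -6.56 and -6.68 on replicates 1 and 4 and between -0.65 and 0.38 on the other 4 arrays. Of 25 gut digestive enzyme genes LysE passed as lower (4% called, beside 1.91% of all features). The mean of these 25 genes was -0.70, -0.13 and -0.018 by pair. The lysozyme gene LysS stood at -3.38 and -3.36 on replicates 1 and 4 (-1.66 ± 0.44, adjusted p 0.0527) and LysX at -1.10 and -1.22 (-0.52 ± 0.20, adjusted p 0.212). None of 15 hemocyte, 11 tracheal, 14 muscle and 7 neural markers passed in limma, which lists of this size cannot tell apart from 1.91%. The hemocyte list ran from -0.12 to 1.71, with its highest ratio for the clotting gene fon (1.71 ± 0.51, adjusted p 0.0854). The part of attached tissues in the called genes was not tested.

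**Figure D5:**
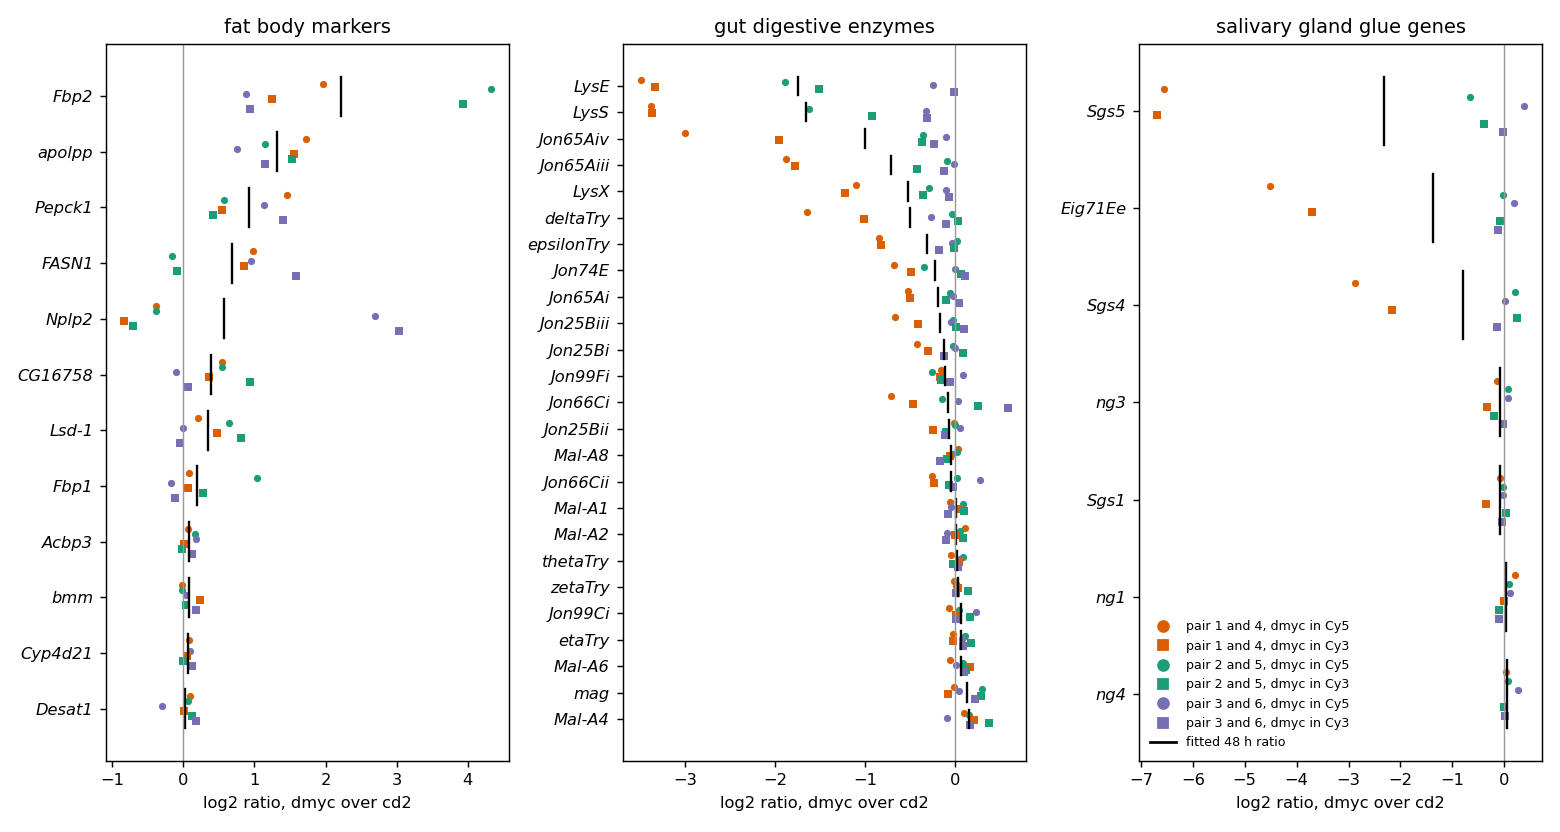
Log2 ratio on each 48 h array for 12 fat body markers, 25 gut digestive enzyme genes and 7 salivary gland glue genes, with colours for dye-swap pairs and black bars for the fitted ratio. The glue gene Sgs5 is near -6.6 on both arrays of the pair 1 and 4 alone, and Fbp2 is highest on the pair 2 and 5.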

How the data were processed

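Per the labels, wing disc RNA was amplified in 2 rounds, labelled with Cy5 or Cy3 and hybridised in pairs to two-colour arrays, with dyes exchanged on 3 of the 6 arrays of a time. The deposited values are log2 ratios as far as the values show, centred on 0 and running from -7.19 to 5.68. The sources used here do not give the background correction, normalization, filters or log base. Signal over background is unknown, and amplification can change ratios unequally between transcripts.

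Of 12359 features, 169 at inferred control positions were left out. Names came from the platform annotation (10289 features with 1 gene, 56 with several, 1845 with none), and 9992 of the first matched RefSeq. Arrays were median-centred, features of a gene averaged, and 4 of 6 values required per time. The table then held 8776 named genes and 1846 features kept by number, with 1.58% of values missing. Features kept by number had no gene or several genes in the annotation and are counted as unnamed. limma 3.58.1 in R 4.3.3 (statmod 1.5.0) was fitted to all 24 arrays with 1 coefficient per time, a dye coefficient and dye-swap pairs as a random block (correlation 0.444). Adjustment was by Benjamini-Hochberg over all features at a threshold of 0.05. Partners had been found by correlation in these same data. That each array's best match of the opposite dye was its partner at every time is therefore no independent check of the pairing. Mean deviations of the dye orientations correlated at 0.505 at 48 h, so no array was turned. The fit was also run on simulated data drawn from its own model, with spreads and pair correlation taken from these arrays. Such data cannot show how the fit handles departures from that model, such as genes extreme in a single pair.

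A rule picked azot, fwe and SPARC, and the 15 highest and 15 lowest named genes that passed with 1 sign on every array. It also picked up to 5 members per list that passed (or up to 2 of lowest p), lysozymes and Fbp genes. For the difference it picked up to 8 genes each way. Not every gene and list picked is described above. Lists left out, such as the 35 proteasome subunits and 24 genes of lipid metabolism, had no member past the threshold, beside 1.91% of all features. The comparison, the 44 gene lists and this rule were chosen with earlier results of these data known. Chromosomes serve here only to count calls by arm and to place Nep6, and sequences are not used.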

Additional observations from a re-analysis of the deposited data

Results flagged for a closer look

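Dronc, an initiator caspase gene, was at 0.363 on 48 h replicate 4, far from the other 5 arrays, which lay between -0.49 and -0.29. Chance marks about 1 in 20 of such groups of arrays, so the 1 seen among 110 genes is not more than chance gives.

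The 48 h ratio differed from the mean of the earlier times for 4 features. Ttd14 rose by 0.41 and puc by 0.33, while the unnamed features 11915 and 13424 were at -0.38 and -0.84 relative to the earlier mean.

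Features at 2 inferred control positions had strongly negative deposited ratios at 48 h. The 48 features at position 4 had a median of -2.84, beside -0.804 at the earlier times, and the 20 at position 5 had -4.85, beside -3.11. The sources used here do not say what these features carry.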

How the results depend on the processing

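The count of 203 features at 48 h moved by over 1.5 times with no random pair block (664), with the replicate number as a block in its place (replicate block, 640), with partners averaged (58), with the 48 h arrays alone (58, of which 39 higher and 19 lower), with complete genes alone (128 of 8331 tested) and without the pair 2 and 5 (46). It was 46 to 295 with 1 array or pair of 48 h left out, and higher calls were 33.8% without the pair 1 and 4 and 57.3% without the pair 3 and 6, against 48.3%. No centring, scaling, quantile normalization, no dye coefficient, no minimum number of values, array weights, robust eBayes and features not averaged gave 201 to 249. The count of 4 for the difference was 20 with no random pair block, 25 with the replicate block, 0 with partners averaged and 2 with no dye coefficient. It was 0 to 18 with 1 array or pair left out. It was 7, 2 and 2 without 48 h replicate 1, 4 or 6. The rule above picked 110 genes, of which 56 passed, out of the 147 named genes that passed in all. Among these 56, no ratio changed sign under any alternative. Partners averaged kept 18, the 48 h arrays alone kept 21, and leaving out the pairs 1 and 4, 2 and 5 or 3 and 6 kept 29, 19 or 44. Signs turned for genes that did not pass. SPARC turned to 0.017 once replicate 2 was left out, and ran from -0.143 to 0.10 over fits without 1 array or pair. For fwe the range was -0.0975 to 0.032, above 0 in fits that lacked replicate 5 (0.00028), replicate 6 (0.027), the pair 2 and 5 (0.0015) or the pair 3 and 6. For Fbp1 it was -0.037 to 0.366, below 0 when the pair 2 and 5 was missing. The causes were not tested.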

Other observations

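Genes that passed at 48 h whichever pair was left out numbered 22 among named genes, 11 higher and 11 lower. Those not described above include l(2)k09022 (0.57 ± 0.07, adjusted p 0.000102), SpdS, the spermidine synthase gene (0.32 ± 0.05, adjusted p 0.000346), CG5290 (0.32), the ionotropic receptor gene Ir76a (-0.39, 5 arrays), CG34159 (-0.37) and CG1537 (-0.20). SpdS had ratios between 0.21 and 0.46 at 48 h and stood at 0.29 at 12 h and 0.32 at 24 h, both past the threshold, after 0.022 at 0 h. These genes were picked after their values were seen.

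Several large ratios did not pass. Obp99b, an odorant-binding protein gene, stood at 4.95 and 5.13 on replicates 2 and 5 and between 0.072 and 1.39 on the other 4 arrays (2.24 ± 0.72, adjusted p 0.122). IM33, an immune-induced gene, stood at 2.87 and 3.22 on replicates 3 and 6 and between 0.086 and 1.25 on the others (1.51 ± 0.64, adjusted p 0.276). Nplp2 was at 2.69 and 3.03 on replicates 3 and 6 and between -0.83 and -0.38 on the others (0.57, adjusted p 0.782). In each case the 2 arrays of the pair with the highest ratios gave like values. Other partners could differ, as for IM33 with 1.02 and 0.086 on replicates 1 and 4.

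Called genes were spread over the chromosome arms. Higher genes made up 1.15% of the genes measured on 2L, 1.10% on 2R, 0.672% on 3L, 1.09% on 3R and 0.851% on X, and lower genes 1.08%, 0.807%, 0.733%, 0.568% and 0.496%. Over all features tested, 0.923% were higher and 0.989% were lower. On chromosome 4, 0 of 37 genes passed, which cannot be told apart from those shares.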
